A study of Mus musculus with 4 samples.

Results

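Glycolysis, lactate handling and the hypoxia response were described here through 34 genes: 2 glucose transporters, 16 glycolytic enzymes and regulators, 5 genes of lactate and pyruvate handling, 5 factors of the HIF oxygen-sensing system and 6 HIF targets. The genes were chosen by name, but with earlier results of these data known, so their counts beside all tested genes are a description and no test. All 34 were found among the 23480 Entrez identifiers of the files and passed the filter on low counts. RNA of mouse T cells had been sequenced in 4 libraries, 2 from cells grown under the Th9 condition and 2 from cells grown under the Th9+TLA1 condition. Both groups share the Th9 condition, which drives helper T cells to make interleukin 9, and differ in TL1A, a TNF superfamily cytokine that the labels write as TLA1. Mouse strain, age, tissue of origin, culture time, cytokine dose and cell purity are not stated in the labels. Nor do the labels tie each library to an animal or culture of its own, so a p-value covers library-to-library spread only, part of which may be technical.

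Glycolysis splits glucose into pyruvate in the cytosol. Activated T cells are known to take up much glucose and to turn much of the pyruvate into lactate, which leaves the cell through monocarboxylate transporters. HIF-1 is a heterodimer of the oxygen-regulated subunit HIF-1α and the stable subunit ARNT. Prolyl hydroxylases of the EGLN family mark HIF-1α for the ubiquitin ligase that contains VHL when oxygen is present, and HIF-1 activates many glycolytic genes when it is not. In T cells, HIF-1α is also raised by activation and by mTORC1 signalling at normal oxygen.

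The 4 libraries held 2979482 to 4041633 reads in genes, and 12122 to 12534 genes had at least 1 read. The 8 T cell markers, Cd3e, Cd3d, Cd3g, Cd4, Cd28, Lck, Lat and Zap70, were present in every library, with a summed level of 2655 and 2869 CPM (counts per 1000000 reads in genes) in Th9 and 3289.8 and 3129 CPM in Th9+TLA1. Il9, the cytokine that defines Th9 cells, had 1559.8 and 1445 CPM in Th9 and 2879 and 2683 CPM in Th9+TLA1. Markers of red cells, mast cells and basophils had 0 reads in all 4 libraries. The 5 B cell markers summed to 10.4 and 12.9 CPM in Th9 and 28.9 and 29.2 CPM in Th9+TLA1, most of it Cd79b (6.19 and 12.9 CPM, then 24.2 and 28.6 CPM), with Ms4a1 and Pax5 at 0. The 7 macrophage and dendritic cell markers summed to 3.22 and 1.89 CPM in Th9 and 11.1 and 6.17 CPM in Th9+TLA1, with Lyz2, Csf1r and Cd14 at 0. Cd68 had 0.990 and 1.58 CPM in Th9 and 7.72 and 4.54 CPM in Th9+TLA1. Flt3 had 0.247 and 0, then 1.68 and 1.62 CPM, and Itgax 0 and 0, then 1.68 and 0 CPM. Adgre1 went the other way (1.98 and 0.316, then 0 and 0 CPM). The CD8 markers summed to 7.92 and 13.3 CPM in Th9 and 9.73 and 10.1 CPM in Th9+TLA1. NK cell markers summed to 0.990 and 0, then 0 and 0.325 CPM. The part of these cells in the results below was not tested. In bulk RNA, fewer cells of a type and less RNA per cell cannot be told apart.

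With TL1A, 29 of the 34 genes had a log2 fold change above 0, and 5 below, where 48.9% and 51.1% of all 10324 tested genes did; with total count scaling it was 27, Eno1 and Bnip3 being below 0. Their median log2 fold change was 0.30, against -0.013 over all tested genes. Only Ndrg1, a hypoxia- and stress-responsive gene, passed the test, so 1 of the 34 was called at an adjusted p under 0.05, where limma called 1.14% of tested genes in either direction and 0.891% higher. It rose 2.21-fold. Slc2a3, Aldoc, Bnip3l, Hif1a and Hk1 had log2 fold changes of 0.61 to 0.79 that did not pass. Pdk1, which encodes a kinase that shuts pyruvate out of oxidation, had 633 and 629 CPM in Th9 and 349 and 417 CPM in Th9+TLA1, and did not pass either.

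Without adjustment, 10 of the 34 were higher and 1 lower at a limma p under 0.05, where 8.54% and 8.14% of all tested genes were. The count of 10 moved widely when 1 library was left out, and the share over all tested genes in those fits was not computed. The CPM of the groups did not overlap in 21 genes that were higher with TL1A and in 1 that was lower, where 19.1% and 29% of tested genes, 48.1% in all, did so. Beside these counts stands 1 low library: Th9 replicate 1 had the lowest value of the 4 libraries in 25 of the 34 genes and in 22.3% of all tested genes. Between the Th9 replicates, 27 of the 34 genes were higher in replicate 2, where 43.1% of tested genes were. Between the Th9+TLA1 replicates 18 of the 34 were higher in replicate 2. Overlap, library order and these replicate counts use deposited CPM, whereas the log2 fold changes use CPM divided by a scaling factor (TMM) per library. That factor was largest, at 1.06, in Th9 replicate 1, so the division lowers this library against the others. The shares of 19.1%, 29%, 22.3% and 43.1% were not recounted on scaled CPM and may differ there. The count of genes with a log2 fold change above 0 was 26 without Th9 replicate 1, 31 without Th9 replicate 2, 31 without Th9+TLA1 replicate 1 and 29 without Th9+TLA1 replicate 2. Leaving out Th9 replicate 1 gave a median of 0.18, and leaving out Th9 replicate 2 gave 0.43.

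**Figure D1:**
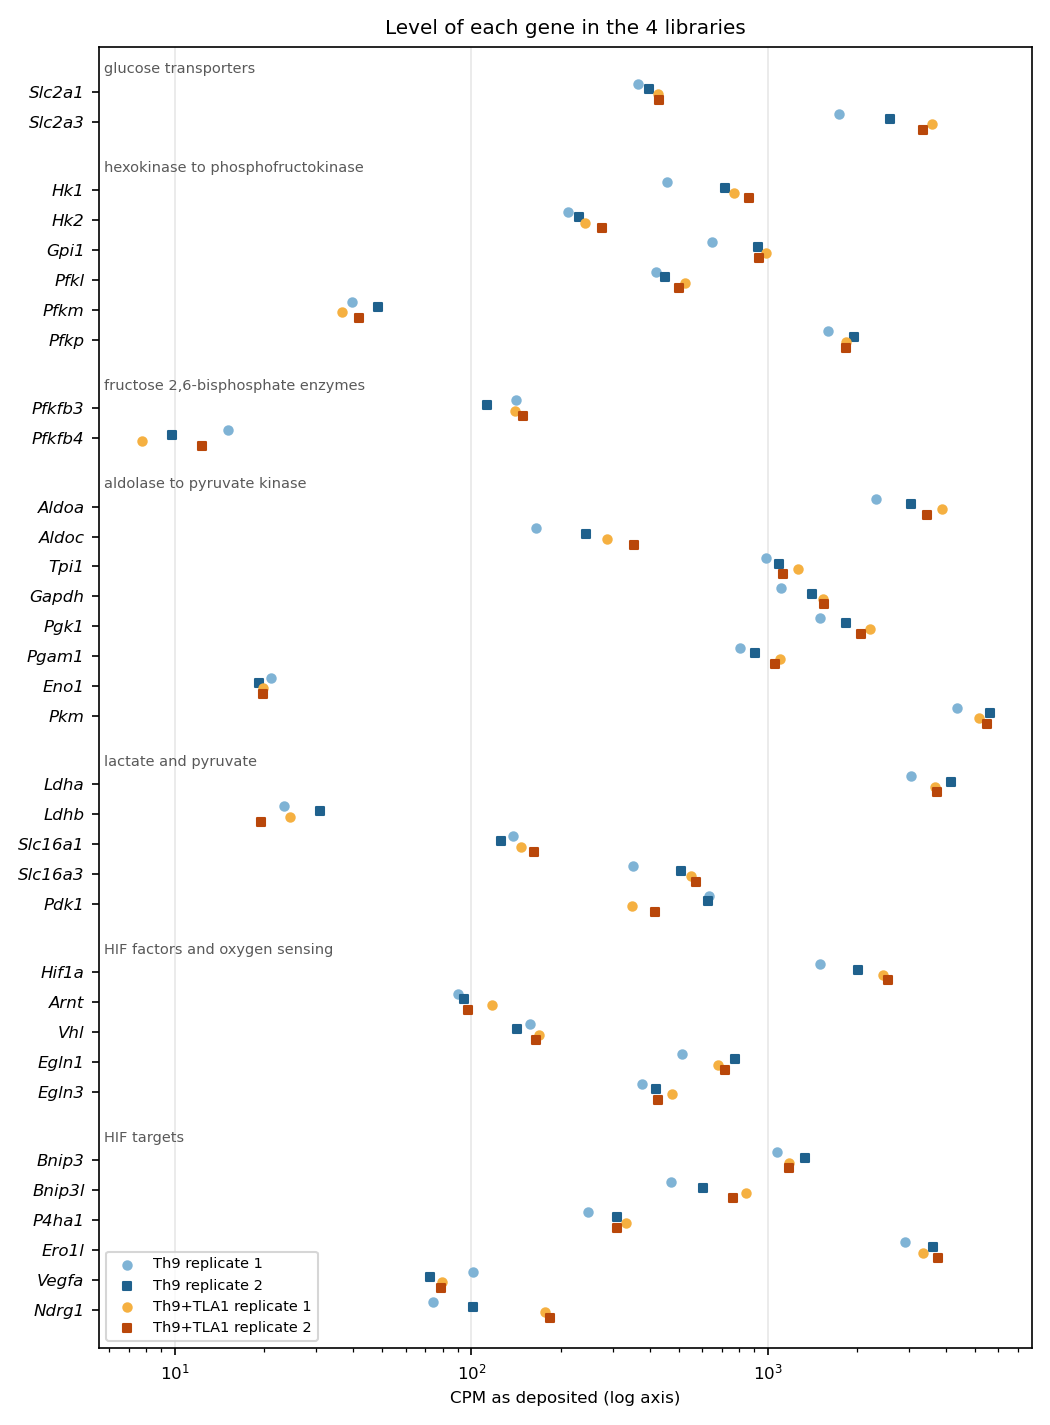
CPM of each of the 34 genes (log axis) in the 2 Th9 and the 2 Th9+TLA1 libraries, grouped by role, with 1 point per library and a small vertical offset between libraries. Th9 replicate 1 is the lowest point in 25 of the 34 rows, and Pdk1 is the row in which both Th9+TLA1 points lie below both Th9 points.

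The direction also moved with how abundant a gene was. Among the 82 tested genes with a mean of at least 1000 CPM, 79.3% had a log2 fold change above 0 and the median was 0.21. Among the 4345 genes under 30 CPM the values were 45.7% and -0.067. Of the 34 genes, 11 lay at 1000 CPM or more, and all 11 were above 0 with a median of 0.29. Another 10 lay between 300 and 1000 CPM, with a median of 0.36 against 0.12 for the 504 tested genes of that range. The 8 genes between 100 and 300 CPM had a median of 0.31, against 0.017 for 1910 tested genes. Exonic length moved with the direction as well: the median went from 0.15 for tested genes under 1000 bases to -0.14 for those of 6000 bases or more. The 11 listed genes of 4000 to 6000 bases had a median of 0.31, against -0.056 for tested genes of that length. The part of level and length in the values below was not tested further.

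**Figure D2:**
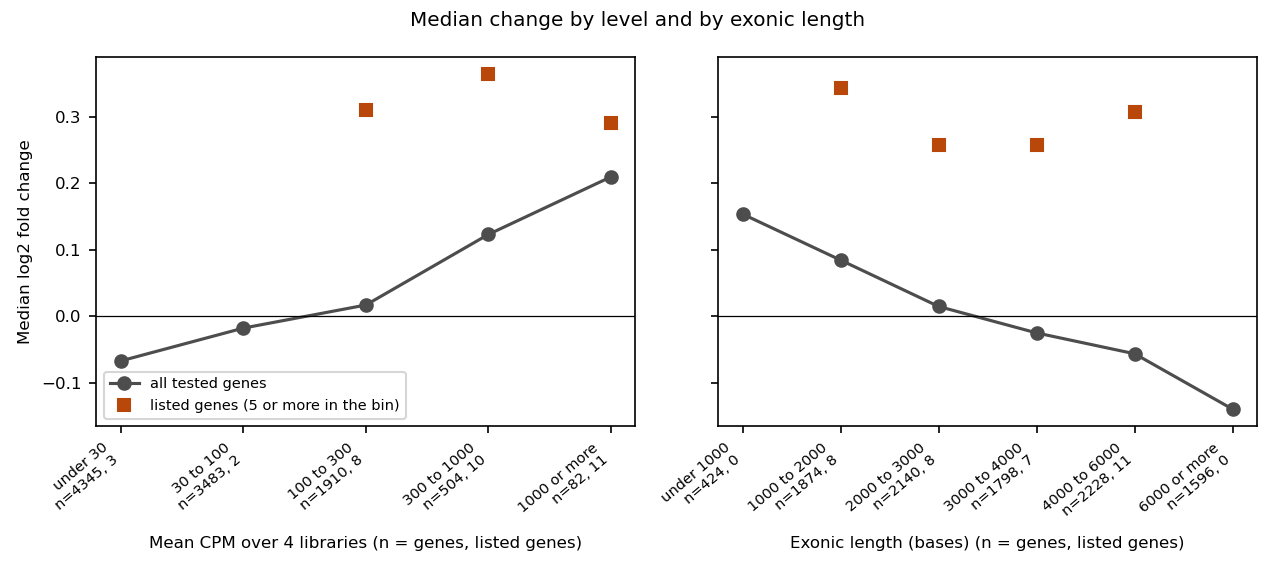
Median log2 fold change (Th9+TLA1 over Th9) by mean CPM (left) and by exonic length (right); circles are all tested genes in the bin and squares the listed genes where the bin holds at least 5 of them. The line for all genes goes from -0.067 to 0.21 with level and from 0.15 to -0.14 with length, and the squares lie between 0.26 and 0.36.

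Glucose enters T cells mainly through GLUT1, encoded by Slc2a1, and GLUT3, a high-affinity carrier encoded by Slc2a3. Slc2a3 (Entrez 20527, chromosome 6, 122727809 to 122802363 of mm10) had 1743 and 2584 CPM in Th9 and 3566 and 3342 CPM in Th9+TLA1. Both TL1A libraries were above both Th9 libraries, and the Th9 pair was wide apart. The log2 fold change was 0.79 ± 0.23 (SE, n = 2 per group; limma adjusted p = 0.129). Leaving out Th9 replicate 1 gave 0.46, and leaving out Th9 replicate 2 gave 1.13 with a limma adjusted p of 0.0482, which passed; over all alternatives the adjusted p ran from 0.0147 to 0.472. Slc2a1 had 364 and 398 CPM in Th9 and 425 and 430.0 CPM in Th9+TLA1 (log2 fold change 0.26 ± 0.17, limma adjusted p = 0.487). Per kilobase of exonic sequence, Slc2a3 had 547 CPM in Th9 and 872 CPM in Th9+TLA1, and Slc2a1 had 117 and 131. Slc2a1 therefore made up a smaller share of the reads of the pair with TL1A. Its share was 17.3% (exact Clopper-Pearson interval 16.5 to 18.1%) and 13.4% (12.7 to 14.1%) in Th9, and 10.6% (10.1 to 11.2%) and 11.4% (10.8 to 12.0%) in Th9+TLA1. The groups did not overlap. With 2 libraries against 2, the smallest two-sided p of an exact permutation test is 0.333, so shares within pairs are given as values with no test.

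Hexokinases trap glucose in the cell, glucose-6-phosphate isomerase (Gpi1) rearranges it, and phosphofructokinase makes the committed step. Hk1 had 456 and 716 CPM in Th9 and 770.3 and 867 CPM in Th9+TLA1. Th9 replicate 1 lay far below the other libraries. The log2 fold change, 0.61 ± 0.23, did not pass (limma adjusted p = 0.214) and was 0.24 without Th9 replicate 1. Hk2, the inducible hexokinase, had 212 and 231 CPM in Th9 and 241 and 276 CPM in Th9+TLA1. Hk1 took 68.3% and 75.6% of the reads of both hexokinases in Th9 and 76.1% and 75.9% in Th9+TLA1, so Th9 replicate 1 stood apart from 3 libraries that were alike within their counting intervals. Gpi1 had 649 and 929 CPM in Th9 and 984 and 932 CPM in Th9+TLA1, with the second Th9 library level with the TL1A libraries (log2 fold change 0.39, and 0.088 without Th9 replicate 1).

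Of the phosphofructokinase genes, Pfkp, the platelet-type subunit, was the most abundant per kilobase of exonic sequence, with 413 CPM in Th9 and 428 CPM in Th9+TLA1. Pfkl, the liver-type subunit, had 116 and 138, and Pfkm, the muscle-type subunit, 14.7 and 13.1. By library, Pfkp had 1593 and 1953 CPM in Th9 and 1835 and 1841 CPM in Th9+TLA1. The groups overlapped, and the log2 fold change of 0.15 ± 0.19 (limma adjusted p = 0.752) was -0.044 without Th9 replicate 1. Pfkl had 419 and 449 CPM in Th9 and 527 and 501 CPM in Th9+TLA1, with a log2 fold change of 0.34 ± 0.17 (limma adjusted p = 0.357). Pfkl took 20.8% and 18.7% of the reads of Pfkl and Pfkp in Th9 and 22.3% and 21.4% in Th9+TLA1. Pfkfb3 and Pfkfb4 encode bifunctional enzymes that set fructose 2,6-bisphosphate, the activator of phosphofructokinase. Pfkfb3 had 141 and 113 CPM in Th9 and 141 and 149 CPM in Th9+TLA1, and Pfkfb4 stayed between 7.72 and 15.1 CPM. Both overlapped between the groups. Pfkm shares its locus with Senp1, Pfkp with Pitrm1 and Hk1 with Hk1os, and the library kit does not mark strand.

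The enzymes from aldolase to pyruvate kinase make the ATP of glycolysis. Of these 8 genes, 6 had non-overlapping groups in deposited CPM, all higher with TL1A, where 19.1% of all tested genes were so. By level that share was 45.1% at 1000 CPM or more. It was 31.9% from 300 to 1000 CPM, where Pgam1 lay, and 21.8% from 100 to 300 CPM, where Aldoc lay. The listed genes are part of these bins. None of the 8 passed the test over all genes. Aldoa, the main aldolase of most cells, had 2321 and 3041 CPM in Th9 and 3871 and 3453 CPM in Th9+TLA1 (log2 fold change 0.55 ± 0.22, limma adjusted p = 0.233). Aldoc, the brain-type aldolase, had 165 and 244 CPM in Th9 and 286 and 354 CPM in Th9+TLA1. Its log2 fold change of 0.75 ± 0.23 was the largest of the glycolytic enzymes (limma adjusted p = 0.139) and lay between 0.42 without Th9 replicate 1 and 1.09 without Th9 replicate 2. Aldoa still held 92.6 to 93.4% of aldolase reads in Th9 and 90.7 to 93.1% in Th9+TLA1, which overlap.

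Pgk1, phosphoglycerate kinase, had 1504 and 1832 CPM in Th9 and 2216 and 2068 CPM in Th9+TLA1 (log2 fold change 0.46 ± 0.19, limma adjusted p = 0.263). Pgam1, phosphoglycerate mutase, had 806 and 905 CPM in Th9 and 1103 and 1058 CPM in Th9+TLA1 (0.43 ± 0.18, limma adjusted p = 0.250). In both genes the lower TL1A library was above the higher Th9 library. Leaving out Th9 replicate 1 brought the log2 fold change of Pgk1 to 0.27, of Pgam1 to 0.30 and of Aldoa to 0.31. Tpi1, triose phosphate isomerase, had 983 and 1094 CPM in Th9 and 1262 and 1124 CPM in Th9+TLA1, a narrow gap. Gapdh had 1107 and 1408 CPM in Th9 and 1537 and 1546 CPM in Th9+TLA1. This gene is a common reference gene, and here its log2 fold change was 0.40 ± 0.19 (95% interval -0.027 to 0.82, limma adjusted p = 0.333). Leaving out Th9 replicate 1 gave 0.17, and leaving out Th9 replicate 2 gave 0.62. Pkm, pyruvate kinase, had 4352 and 5600.1 CPM in Th9 and 5159.6 and 5472 CPM in Th9+TLA1, and the groups overlapped.

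Eno1, the main enolase gene, stood at only 21.0 and 19.3 CPM in Th9 and 19.8 CPM in both Th9+TLA1 libraries. Its intronless near copy Eno1b, which is not one of the 34 genes, was listed at 3745 and 4911 CPM in Th9 and 4113 and 4331 CPM in Th9+TLA1. Of all stretches of 50 bases in the longest coding Eno1 transcript, 70.5% occur unchanged in Eno1b. The deposited values are per gene and not per read. Which of the copies the enolase reads came from therefore cannot be told apart here. Neither Eno1 (log2 fold change 0.065 ± 0.38, limma adjusted p = 0.959) nor Eno1b (0.069 ± 0.22, limma adjusted p = 0.919) passed. Other members also share stretches of 50 bases with copies elsewhere: 82.5% of Gapdh, 68.0% of Pgk1, 41.5% of Pgam1 and 34.4% of Pkm. The labels do not say how reads that fit several places were handled, so the levels of these genes are uncertain.

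Lactate dehydrogenase turns pyruvate into lactate, and SLC16A1 (MCT1) and SLC16A3 (MCT4) carry lactate across the membrane. Ldha had 3052 and 4140.5 CPM in Th9 and 3661 and 3735 CPM in Th9+TLA1, with both TL1A libraries between the Th9 libraries. Its log2 fold change was 0.15 ± 0.22 (95% interval -0.33 to 0.63, limma adjusted p = 0.795), and without Th9 replicate 1 it was -0.12. Ldhb had 19.5 to 30.9 CPM, and Ldha held 99.2 to 99.3% of the reads of both in Th9 and 99.3 to 99.5% in Th9+TLA1. Slc16a3, the exporter of glycolytic cells, had 352 and 509 CPM in Th9 and 551 and 574 CPM in Th9+TLA1 (log2 fold change 0.50 ± 0.21, limma adjusted p = 0.258; 0.19 without Th9 replicate 1 and 0.82 without Th9 replicate 2). Slc16a1 had 139 and 126 CPM in Th9 and 147 and 163 CPM in Th9+TLA1. Neither passed, and Slc16a3 shares its locus with Csnk1d, which had 259 to 372 CPM.

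Pdk1 (Entrez 228026, chromosome 2, 71873215 to 71903858) had the lowest log2 fold change of the 5 genes below 0. Its product phosphorylates and inactivates pyruvate dehydrogenase, and it is a known HIF target. The Th9 libraries, at 633 and 629 CPM, were nearly equal, and both Th9+TLA1 libraries, at 349 and 417 CPM, were lower. The log2 fold change of -0.63 ± 0.17 (95% interval -1.01 to -0.25) did not pass over all genes (limma adjusted p = 0.117). It lay between -0.51 and -0.75 whichever library was left out, and DESeq2 on the recovered reads called it (adjusted p = 0.0274, in a range of 0.0274 to 0.568 over all alternatives). Pdk1 was the only one of the 34 genes with both TL1A libraries below both Th9 libraries.

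**Figure D3:**
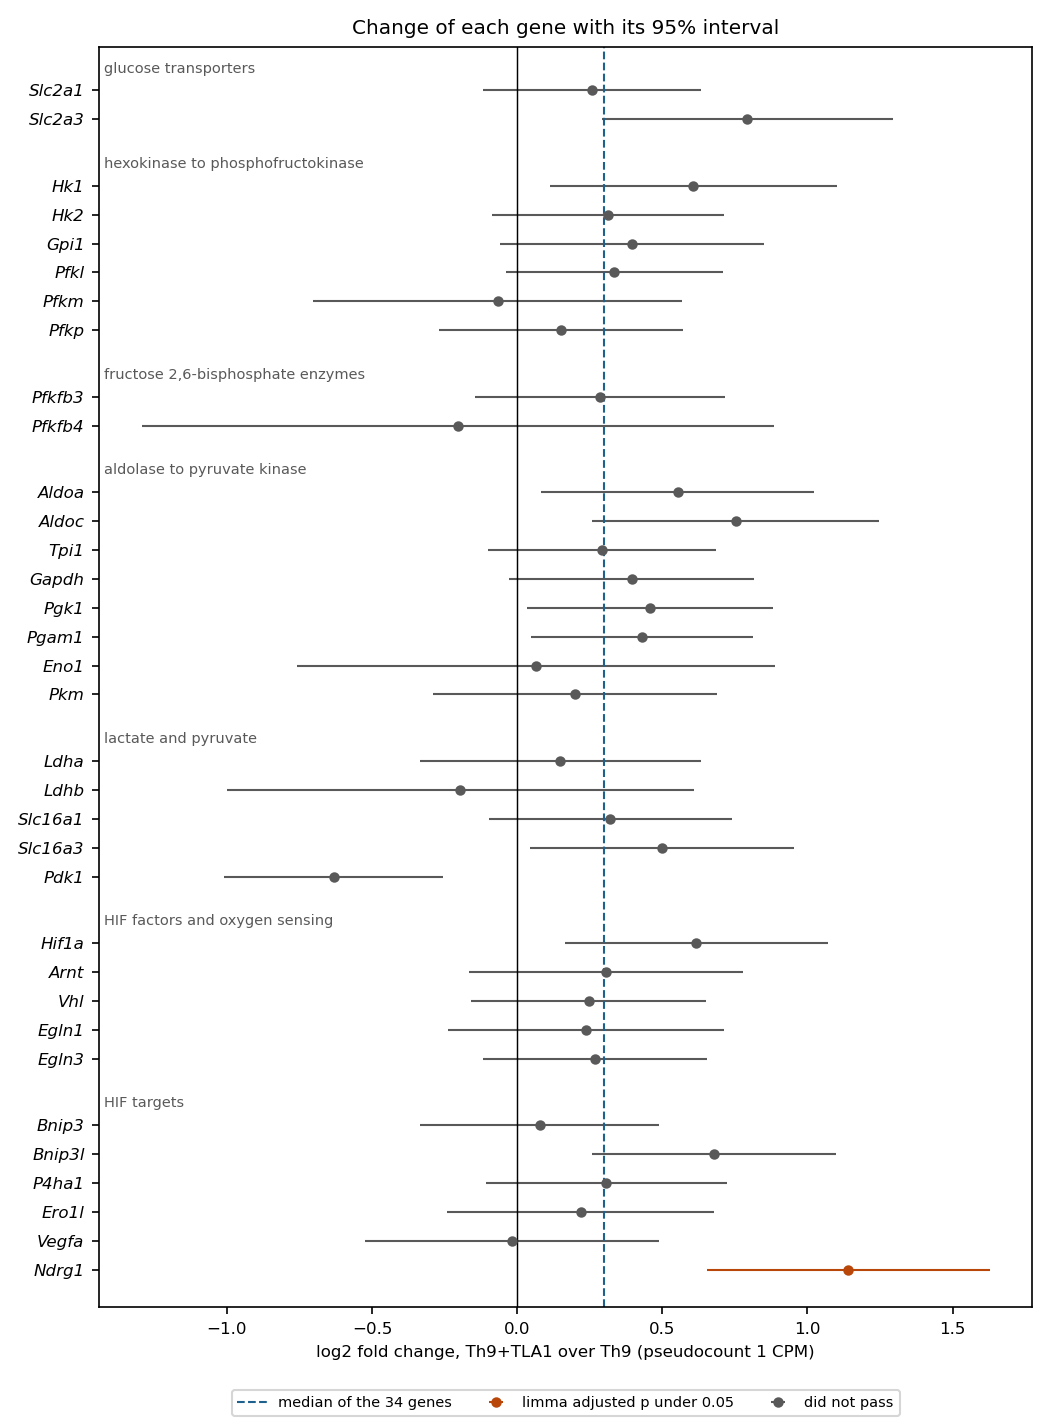
Log2 fold change of each gene with TL1A (points) and its 95% interval from limma (bars), grouped by role; the dashed line is the median of the 34 genes, 0.30. Ndrg1, at 1.14, is the only gene past the adjusted threshold, and Pdk1, at -0.63, is the only gene whose whole interval lies below 0.

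Among the factors of the HIF system, Hif1a had the largest log2 fold change. It had 1501 and 2014 CPM in Th9 and 2454 and 2549.7 CPM in Th9+TLA1, so the groups did not overlap. At 0.62 ± 0.21, its log2 fold change did not pass (limma adjusted p = 0.172) and was 0.36 without Th9 replicate 1. Arnt, the partner subunit, had 89.8 and 94.7 CPM in Th9 and 118 and 97.7 CPM in Th9+TLA1. Vhl had 158 and 143 CPM in Th9 and 169 and 166 CPM in Th9+TLA1.

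The prolyl hydroxylase genes Egln1 and Egln3 are both known HIF targets themselves. Egln1 had 513 and 777 CPM in Th9 and 677 and 719 CPM in Th9+TLA1, with both TL1A libraries inside the Th9 range. Egln3 had 376 and 419.6 CPM in Th9 and 474 and 425 CPM in Th9+TLA1. Neither passed (limma adjusted p = 0.640 and 0.483). The 95% intervals of Arnt (-0.17 to 0.78), Vhl (-0.16 to 0.65), Egln1 (-0.24 to 0.71) and Egln3 (-0.12 to 0.65) all include 0.

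Of the 6 HIF targets, 5 had a log2 fold change above 0 and 1 was called. Differences between the targets were not tested. Ndrg1 (Entrez 17988, chromosome 15, 66929318 to 66969641) had 74.5 and 102 CPM in Th9 and 178 and 185 CPM in Th9+TLA1. Both TL1A libraries were well above both Th9 libraries, and the log2 fold change was 1.14 ± 0.22 (SE, n = 2 per group; limma adjusted p = 0.0329). The call was lost without Th9 replicate 1 (log2 fold change 0.87, adjusted p = 0.178), without Th9 replicate 2 (1.42, adjusted p = 0.0912) and without Th9+TLA1 replicate 2 (1.12, adjusted p = 0.106), and held without Th9+TLA1 replicate 1 (1.16, adjusted p = 0.0184). It was also lost with total count scaling (adjusted p = 0.0649) and without a filter on low counts (0.0818), and over all alternatives the adjusted p ran from 0.00188 to 0.178.

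Bnip3 and Bnip3l encode related mitochondrial receptors for mitophagy. Bnip3l (Entrez 12177, chromosome 14, 66985238 to 67008877) had 470.4 and 606 CPM in Th9 and 844 and 762 CPM in Th9+TLA1, a log2 fold change of 0.68 ± 0.19 (limma adjusted p = 0.124; 0.45 without Th9 replicate 1). Bnip3 had 1071 and 1330.5 CPM in Th9 and 1183 and 1180.4 CPM in Th9+TLA1, inside the Th9 range. Bnip3 accordingly took 69.5% (68.3 to 70.6%) and 68.7% (67.5 to 69.9%) of the reads of the pair in Th9, and 58.3% (57.1 to 59.6%) and 60.8% (59.5 to 62.0%) in Th9+TLA1 (exact Clopper-Pearson intervals). In this pair, unlike the hexokinases, the Th9 libraries were alike within their counting intervals and both TL1A libraries lay apart from them. Of the stretches of 50 bases in these genes, 21.9% (Bnip3) and 23.4% (Bnip3l) also occur in copies elsewhere.

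P4ha1, a collagen prolyl hydroxylase subunit, had 248 and 309 CPM in Th9 and 332 and 311 CPM in Th9+TLA1. Ero1l, an oxidase of the endoplasmic reticulum that the reference table lists as Ero1a, had 2897 and 3620.5 CPM in Th9 and 3330.4 and 3756 CPM in Th9+TLA1. Vegfa, the vascular growth factor and a textbook HIF target, had 101 and 72.3 CPM in Th9 and 79.5 and 79.2 CPM in Th9+TLA1. None of the 3 passed, and the log2 fold change of Vegfa was -0.018 ± 0.23 (95% interval -0.53 to 0.49).

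**Figure D4:**
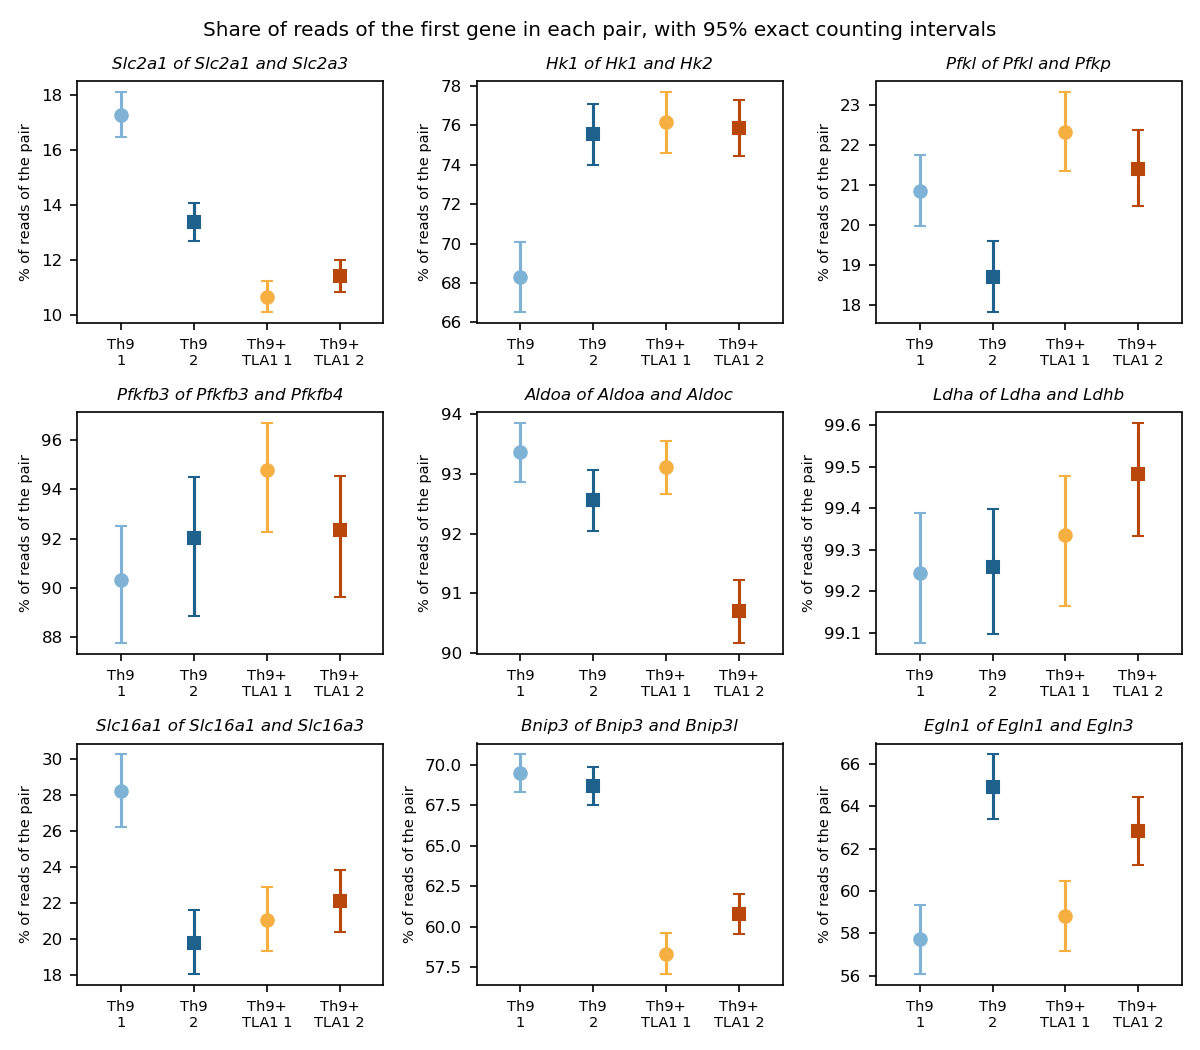
Share of reads of the first gene within each of 9 gene pairs, in percent, for each library with its exact 95% counting interval; the vertical axes differ between panels and do not start at 0. Slc2a1 (17.3 and 13.4% against 10.6 and 11.4%) and Bnip3 (69.5 and 68.7% against 58.3 and 60.8%) have lower shares in both Th9+TLA1 libraries. Hk1, Pfkl, Pfkfb3 and Ldha have higher shares in both, and the groups overlap for Aldoa, Slc16a1 and Egln1. No share was tested.

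HIF-1 binds a short core in DNA, and the letters ACGTG and GCGTG were counted on both strands in RefSeq promoter windows of GRCm38.p6, the assembly of mm10. The windows run from 250 bases before to 50 bases after a start site. Of the 34 genes, 31 matched an entry, with 45 windows; Bnip3l, Ndrg1 and Slc2a3 had none. ACGTG was in a window of 21 of the 31 genes, in 21.8% of all 27025 genes with a window and in 30.9% of the 8339 tested ones. GCGTG was in a window of 21 of the 31 genes as well, against 35.2% and 58.1%. A gene was counted if any of its windows held the core, so genes with more windows had more occasions to count. By window, ACGTG was in 53.3% of the 45, in 19.6% of all and in 26.8% of those of tested genes. For GCGTG the shares were 57.8%, 32.4% and 52.3%. Of the 45 windows, 80.0% held either core, against 43.8% of all 32851 windows and 64.0% of the 10591 windows of tested genes. The list holds genes chosen as HIF targets, so these contrasts are no test. The median GC content was 62.3% in the windows of the listed genes, 61.0% in those of tested genes and 52.7% in all windows. A match is a run of letters and no binding site, and the 2 cores can overlap each other on opposite strands.

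The 250 bases before the start are shown, from 1 RefSeq start site each, for 4 genes: of those with an entry and a core there, the ones whose p was smallest: Pdk1 (chr2:71872974-71873223, plus strand), Aldoc (chr11:78322823-78323072, plus strand), Hif1a (chr12:73907617-73907866, plus strand) and Hk1 (chr10:62340422-62340671, minus strand). The choice required a core, so that these genes share one is no result. Where a gene had several start sites, the one with the most cores was printed. The other window of Pdk1 (chr2:71874654-71874953) and that of Hk1 (chr10:62379859-62380158) held neither core. That of Aldoc (chr11:78323948-78324247) held 1 GCGTG. Each printed stretch is written from 5′ to 3′ on the gene's strand, with the cores in capitals (CACGT and CACGC are the cores read on the opposite strand).
Pdk1: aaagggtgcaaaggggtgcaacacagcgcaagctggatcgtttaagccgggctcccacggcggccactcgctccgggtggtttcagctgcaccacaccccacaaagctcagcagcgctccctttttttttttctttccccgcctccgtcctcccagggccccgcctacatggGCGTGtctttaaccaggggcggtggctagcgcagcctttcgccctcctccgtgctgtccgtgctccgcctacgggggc
Aldoc: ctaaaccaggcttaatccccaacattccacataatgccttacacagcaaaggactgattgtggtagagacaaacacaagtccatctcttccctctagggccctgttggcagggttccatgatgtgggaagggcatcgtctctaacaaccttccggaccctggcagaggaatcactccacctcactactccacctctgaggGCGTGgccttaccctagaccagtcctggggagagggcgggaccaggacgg
Hif1a: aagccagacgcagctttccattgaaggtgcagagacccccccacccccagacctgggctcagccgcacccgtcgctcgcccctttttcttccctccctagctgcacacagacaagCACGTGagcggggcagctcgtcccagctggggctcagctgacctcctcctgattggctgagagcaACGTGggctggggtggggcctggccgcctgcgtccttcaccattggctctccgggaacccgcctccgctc
Hk1: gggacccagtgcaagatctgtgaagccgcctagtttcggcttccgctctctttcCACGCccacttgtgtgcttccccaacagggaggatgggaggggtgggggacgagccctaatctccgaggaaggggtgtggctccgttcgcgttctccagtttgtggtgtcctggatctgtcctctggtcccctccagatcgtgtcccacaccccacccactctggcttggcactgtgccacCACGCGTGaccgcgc
Pdk1 and Aldoc each held 1 GCGTG core and no ACGTG core in this stretch. Hif1a held 3 ACGTG matches, of which 2 overlap on opposite strands in CACGTG. Hk1 held 3 GCGTG matches, of which 2 overlap on opposite strands.

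Summed by role, the 34 genes took 28590.2 and 36499 CPM in Th9 and 38560.4 and 38624 CPM in Th9+TLA1, which is 2.86 to 3.86% of reads. The glucose transporters summed to 2107 and 2983 CPM in Th9 and 3991 and 3772 CPM in Th9+TLA1, a ratio of 1.53 between the group means. The HIF factors and sensors had a ratio of 1.29, and the enzymes from aldolase to pyruvate kinase 1.20. The latter sum leaves out the reads listed under Eno1b, with means of 4328 CPM in Th9 and 4222 CPM in Th9+TLA1, beside 12701 and 15274 CPM for the role. In the lactate and pyruvate group the sums of 4199 and 5435 CPM in Th9 enclosed those of 4733 and 4908.5 CPM in Th9+TLA1, with group means of 4817 and 4821 CPM. Sums follow the most abundant genes, such as Slc2a3, Pkm, Ldha and Hif1a.

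**Figure D5:**
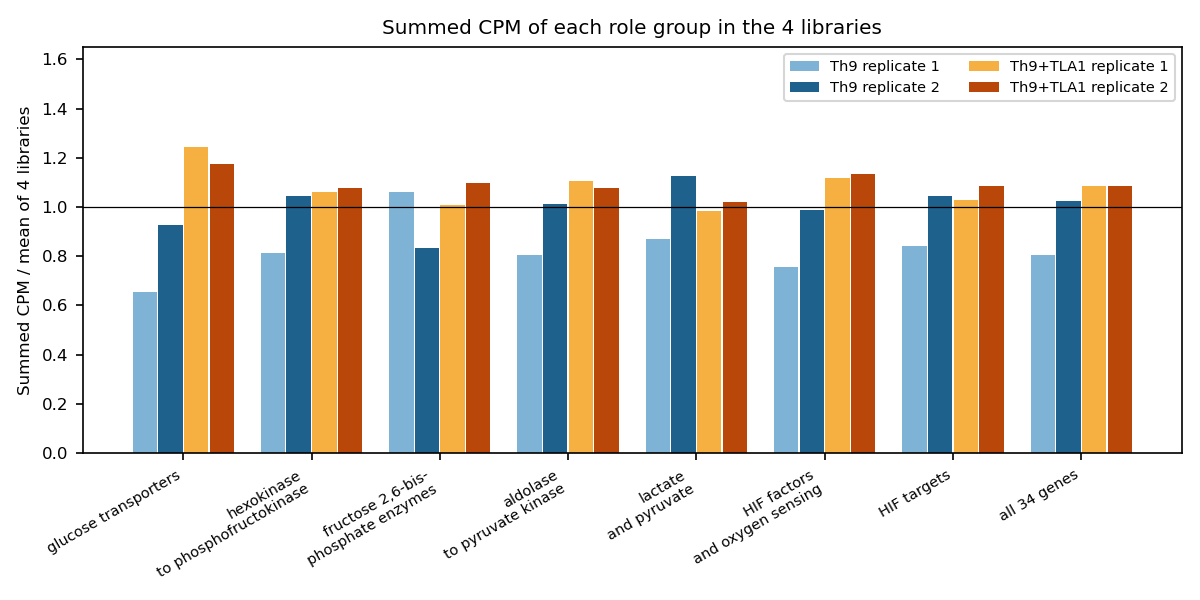
Summed CPM of each role group in each library, divided by the mean of the 4 libraries for that group (bars start at 0). Th9 replicate 1 is the lowest bar in every role group except the fructose 2,6-bisphosphate enzymes, and the transporters show the widest gap between the groups, from 2107 and 2983 CPM to 3991 and 3772 CPM.

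Other genes of the pathway were taken from 6 lists of 111 genes, of which 102 were tested. None of them passed the adjusted threshold in limma, 10 were higher and 10 lower at an unadjusted p under 0.05 (8.54% and 8.14% of all tested genes), and their median log2 fold change was -0.032. Other glycolysis genes had a median of -0.071 over 19 tested genes. In that list Bsg, the chaperone of the lactate carriers, had 822 and 1131 CPM in Th9 and 1615 and 1407 CPM in Th9+TLA1 (log2 fold change 0.74 ± 0.21, limma adjusted p = 0.124). Adpgk, an ADP-dependent glucokinase, had 77.4 and 60.3 CPM in Th9 and 33.9 and 36.3 CPM in Th9+TLA1 (-0.85 ± 0.27, limma adjusted p = 0.150). Neither passed. In both, the deposited CPM of the groups did not overlap, as in 48.1% of all tested genes.

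In the list of pentose phosphate and serine synthesis, 8 of 12 genes had a log2 fold change below 0. The smallest p-values were those of the serine hydroxymethyltransferases Shmt1 (-0.52 ± 0.23, limma adjusted p = 0.279) and Shmt2 (-0.33 ± 0.18, adjusted p = 0.383). In the list of pyruvate entry into mitochondria, 11 of 14 tested genes were below 0. Pcx, pyruvate carboxylase, had -0.49 ± 0.25 (limma adjusted p = 0.367) and Pdpr, a regulator of pyruvate dehydrogenase phosphatase, -0.72 ± 0.39 (adjusted p = 0.395). The medians of these lists were -0.081 and -0.11.

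Other HIF subunits and regulators had a median of -0.0056 over 13 tested genes. Hif1an, the asparagine hydroxylase that restrains HIF-1α, had 59.9 and 72.9 CPM in Th9 and 22.5 and 40.6 CPM in Th9+TLA1 (log2 fold change -1.01 ± 0.33, limma adjusted p = 0.159). Siah2, a ubiquitin ligase for prolyl hydroxylases, had 46.3 and 47.0 CPM in Th9 and 75.2 and 57.4 CPM in Th9+TLA1 (0.58 ± 0.26, limma adjusted p = 0.298). Of 26 other HIF targets, 17 were above 0, with a median of 0.18, and 6 were higher and 2 lower at an unadjusted limma p under 0.05 (8.54% and 8.14% of all tested genes). Bhlhe40, a transcription factor, had 751 and 1098 CPM in Th9 and 1709 and 1413 CPM in Th9+TLA1 (0.87 ± 0.22, limma adjusted p = 0.0965). Hmox1, heme oxygenase 1, had 11.1 and 11.4 CPM in Th9 and 29.5 and 23.7 CPM in Th9+TLA1 (1.25 ± 0.40, limma adjusted p = 0.159).

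In the list of MYC, mTORC1 and AMPK inputs, 12 of 18 genes were below 0, with a median of -0.14. Rps6kb1, the S6 kinase of the mTORC1 pathway, had 148 and 95.4 CPM in Th9 and 60.7 and 53.9 CPM in Th9+TLA1 (log2 fold change -0.95 ± 0.25, limma adjusted p = 0.101). Rheb, the GTPase that activates mTORC1, had 212 and 167 CPM in Th9 and 119 and 126 CPM in Th9+TLA1 (-0.53 ± 0.19, limma adjusted p = 0.212). Neither passed. The T cell markers had a median of 0.30 over 8 genes, with 7 above 0, the same median as the 34 genes; the difference between these lists was not tested.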

How the data were processed

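Each library has 1 deposited file of CPM, counts per 1000000 reads in genes; HTSeq 0.5.4, edgeR and mm10 are named in the submitters' processing notes. Which aligner and annotation were used is not stated there. Per the labels' protocols, cDNA came from a SMARTer Ultra Low Input kit and was sequenced on an Ion Torrent instrument. All non-zero CPM were whole multiples of 1 read within a tolerance of 0.01 (100% of values), so reads were recovered; 3 reads equal 0.742 to 1.01 CPM. Amplified reads are not independent molecules, so intervals cover counting error only.

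Symbols came from a RefSeq table of GRCm38.p6 (23383 of 23480 identifiers matched); exonic lengths came from GENCODE M21. Genes were kept with filterByExpr (minimum count 10), CPM were divided by TMM factors (0.964 to 1.06), and log2(CPM + 1) was fitted with limma 3.58.1 (lmFit, eBayes with trend) on the group alone. Calls are Benjamini-Hochberg adjusted p under 0.05 over 10324 genes. Fold changes carry the pseudocount of 1 CPM, which understates changes of low genes. Printed CPM are as deposited. Overlap of the groups, the order of the libraries and the replicate comparisons were also counted on deposited CPM, without the TMM factors. Replicates differed by 12.2 (Th9) and 7.54 (Th9+TLA1) times sampling noise (chi-square per degree of freedom), so they are not copies. The fit was also run on simulated data as a check of the code, whose outcome is not given here and backs none of the values. R 4.3.3, edgeR 4.0.16 and DESeq2 1.42.0 were used; edgeR's quasi-likelihood test on the recovered reads called 110 genes.

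The 34 genes and all lists were chosen with earlier results of these data known. All 34 genes are named; by the naming rule, values in every library are given for those with an unadjusted p under 0.05 and the largest change of each role, and the other lists are named by the 2 genes with the smallest p, since none was called. Further values, the near copies and the bins of level and length were added after the values were seen.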

Additional observations from a re-analysis of the deposited data

How the results depend on the processing

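Of 510 values of single genes under 15 alternatives, 488 kept their sign and their side of the threshold, 5 lost the call, 4 gained it and 13 changed sign. The 118 genes called over the whole table became 73 with total count scaling, 33 without a filter on low counts, 275 with DESeq2 and 225 with the replicate number as a block (replicate block). The 1 called gene of the 34 became 0 with total count scaling, 0 without a filter and 4 with DESeq2, which added Slc2a3 (adjusted p = 0.0147), Pdk1 and Bnip3l (0.0351). With total count scaling 27 of the 34 were above 0, and Eno1 (-0.022) and Bnip3 (-0.015) changed sign. The cause of these differences was not tested.

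Leaving out each library gave 19 to 155 called genes (19 without Th9 replicate 2, 42 without Th9 replicate 1), 0 to 1 of the 34, and a median of 0.18 to 0.43. Log2 fold changes that changed sign there ranged from -0.044 to 0.35 for Pfkp, -0.51 to 0.10 for Pfkfb4, -0.031 to 0.44 for Pkm, -0.12 to 0.42 for Ldha, -0.11 to 0.59 for Egln1, -0.13 to 0.29 for Bnip3, -0.20 to 0.18 for Vegfa, -0.25 to 0.13 for Pfkm and -0.44 to 0.055 for Ldhb. The lone library of a group is then assumed to vary like the other group.

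Same-numbered libraries did not deviate together (correlation -0.011 over tested genes and -0.26 over the 34 genes). The labels do not say whether a number marks a shared animal or day. Pairing is therefore unknown, and the main fit did not use the numbers. With the block Ndrg1 remained the 1 called gene of the 34 (adjusted p = 0.0106). With 2 libraries per group, the 95% interval included 0 in 23 of the 34 genes, which limits what these data can show.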
